A study of Homo sapiens with 12 samples.

Results

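The comparison described here is that of U251 cells given artesunate at 180 µM for 24 h with U251 cells in medium alone, followed across all expressed genes with attention to those outside the integrated stress response, NRF2, hypoxia, glycolysis, mitosis and DNA replication lists. Its members are 6 of the 12 libraries in the series, 3 with artesunate and 3 controls, and the other 6 come from U87 cells treated at 24.08 µM or left in medium. U251 and U87 are human glioma lines grown in culture, and artesunate is a semisynthetic artemisinin derivative with an endoperoxide bridge. All samples carry the label day 9. The control label names only medium ("10%DMEM"), no solvent control is stated, and the extraction text speaks of artemisinin where the other labels speak of artesunate. The labels do not say whether replicates were separate cultures, so the p-values measure the spread between these samples, which may be technical.

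The endoperoxide of artemisinins reacts with ferrous iron and heme, and the products alkylate proteins and generate reactive oxygen species. In cultured tumour cells these drugs are best known for raising oxidative and endoplasmic reticulum stress genes and for slowing proliferation. Beyond those programs, glioma lines carry growth factor receptors, matrix genes and neural developmental regulators whose transcripts can be followed in the same libraries.

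The 6 libraries held 14230077 to 16297348 counts. GFAP, the astrocyte intermediate filament, lay between 46.2 and 94.2 CPM (counts scaled to library size) and was not called. CDKN2A, the cell-cycle inhibitor gene at 9p21, had 0 counts in each library, which allows up to 3 counts per library. Of 11 microglia and leukocyte markers 5 were at 0 in all libraries, and the summed level was 2.30 to 4.38 CPM in controls and 4.46 to 6.98 CPM with artesunate. CD68 accounted for this rise, at 0.31 to 2.56 CPM in controls and 3.35 to 6.20 CPM with artesunate. The other tested members, CSF1R and CD14, had log2 fold changes of -0.78 and -1.03, and none of the tested members was called. Neuronal markers summed to 2845 to 3090 CPM in controls and 2013 to 2260 CPM with artesunate, most of it from the neurofilament gene NEFL. Fibroblast and pericyte markers summed to 1511 to 1635 CPM in controls and 1288 to 1533 CPM with artesunate, most of it from COL1A2. Endothelial markers summed to 94.9 to 102 CPM in controls and 61.3 to 67.9 CPM with artesunate, most of it from KDR, which was called lower. The part of other cell types in the results was not tested.

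Of 15286 tested genes, 1481 were higher with artesunate (9.69% of those tested) and 1411 were lower (9.23%), by edgeR's quasi-likelihood test at an adjusted p under 0.05. The changes were mostly small: the median log2 fold change of the genes called was 0.51 for the higher and -0.45 for the lower ones, and 188 genes rose and 74 fell at least 2-fold. Genes outside the 6 stress, hypoxia and cell-cycle lists made up 2616 of the 2892 calls (90.5%), 1365 higher and 1251 lower. They also made up most of the tested genes, 14917 of 15286, of which 9.15% were higher and 8.39% lower. Inside the 6 lists 276 of 369 tested genes were called, a far larger share. These lists were chosen with earlier results of these data known, so this share is not an independent result. Of the calls outside the lists 142 rose and 67 fell at least 2-fold. The counts moved with the libraries included. Without control 1, 2 or 3 there were 988, 757 or 824 higher and 862, 646 or 725 lower genes. Without artesunate 1 or 2 there were 710 or 775 higher and 626 or 707 lower, whereas without artesunate 3 there were 1600 and 1340. In all 826 genes, 28.6% of those called, were called in the same direction in each of 10 refits on counts (each of the 6 libraries left out, all 12 libraries, DESeq2, library totals and a replicate block).

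The calls followed the base composition of the transcripts. When the tested genes were split into 5 equal groups by the GC content of their longest transcript, 1.84% of the genes in the lowest group (up to 40.8% GC) were higher and 19.4% were lower. In the highest group (57.5% GC and over) 22.2% were higher and 1.25% lower. Across genes the log2 fold change and GC content had a Spearman correlation of 0.45, a description because genes are not independent replicates, and the Pearson correlation with log2 transcript length was 0.005. The trend was not equally strong in the libraries. The median deviation of the highest group from the gene means was 0.17 and 0.16 (log2 CPM) in artesunate 1 and 2 but 0.04 in artesunate 3, and it was -0.09, -0.13 and -0.12 in controls 1, 2 and 3. The calls by chromosome had the same pattern. On chromosome 19, with a median transcript GC of 57.7%, 196 genes were higher and 34 lower of 1055, while on chromosome 4, at 42.8%, 28 were higher and 83 lower of 532.

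A fit with a correction for GC content and length, added after this pattern had been seen, called 1007 genes higher (6.61% of 15238) and 1000 lower (6.56%), with 146 and 49 changed at least 2-fold. Chromosome 19 then had 69 higher and 48 lower genes, and chromosome 4 had 26 and 36. Of the 2892 genes called on the deposited counts, 1500 (51.9%) were called in the same direction after the correction, 764 higher and 736 lower, of which 1248 lay outside the known lists. Of the 826 genes that held in all refits, 737 (89.2%) were also called with the correction. Counts with the correction are therefore given beside the gene lists below. The shares of all tested genes to set them against are 9.69% higher and 9.23% lower on the deposited counts, and 6.61% and 6.56% with the correction. Whether the trend with GC content arose in the cells or in the libraries was not tested.

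**Figure D1:**
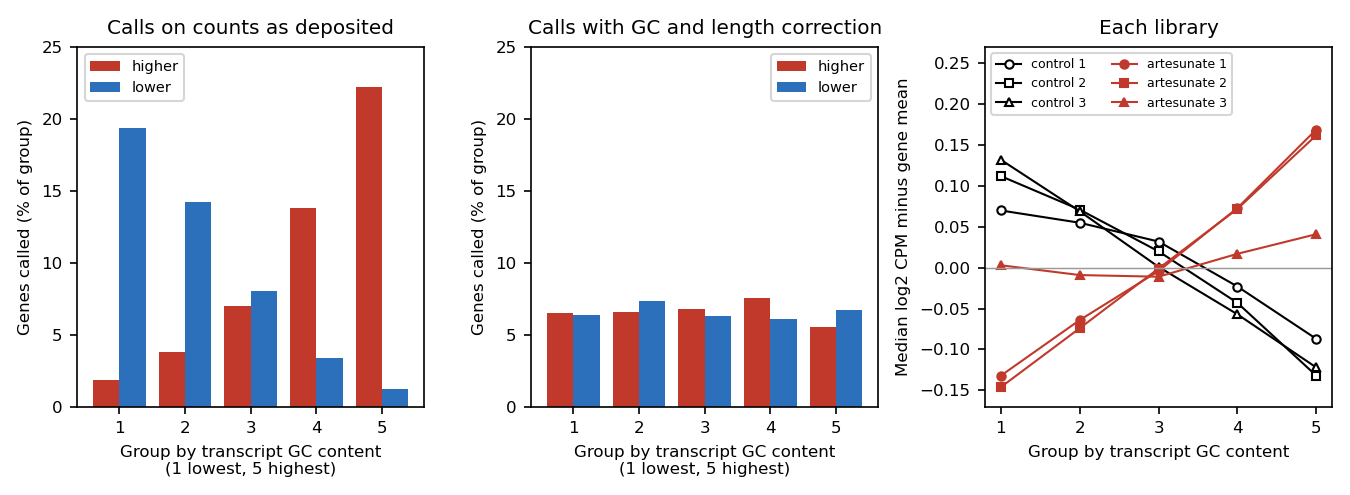
Genes called higher (red) or lower (blue) with artesunate in U251, as % of each of 5 equal groups by transcript GC content, on the deposited counts (left) and with a GC and length correction (middle), and the median log2 CPM of each group minus the gene mean in each of the 6 libraries (right). The share called higher goes from 1.84% to 22.2% across the groups without the correction, and artesunate 3 lies closest to 0 of the 3 artesunate libraries in the highest group.

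The protein-coding genes named below had the largest fold changes among those outside the known lists that held in all refits, had a mean of at least 5 CPM and did not overlap between the groups, so that leaving out a library loses none of them by construction. DEPP1, a regulator of autophagy induced by FOXO factors, was at 8.02, 9.93 and 10.3 CPM in controls and at 80.6, 79.2 and 68.3 CPM with artesunate. All artesunate libraries lay far above the controls (log2 fold change 3.01 ± 0.12 (SE), n = 3 per group, adjusted p = 5.4e-05), and the value was 2.87 with the GC correction. TSC22D3, which encodes the glucocorticoid-induced leucine zipper protein and is another FOXO target, was at 45.1, 35.7 and 30.1 CPM in controls and 97.1, 101.6 and 104.8 CPM with artesunate (1.45 ± 0.14, adjusted p = 0.0014). Both genes had tight artesunate libraries, while the TSC22D3 controls spread more.

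ERRFI1, the feedback inhibitor of the epidermal growth factor receptor, was at 299.9, 309.6 and 303.6 CPM in controls and at 714, 738 and 764 CPM with artesunate (1.28 ± 0.05, adjusted p = 5.1e-05). EIF4EBP1, the translation repressor that mTORC1 phosphorylates, was at 42.7, 37.1 and 42.3 CPM and rose to 95.6, 105.7 and 93.6 CPM (1.27 ± 0.08, adjusted p = 0.00038). HTR7, a serotonin receptor, was at 8.81, 8.04 and 9.52 CPM and rose to 20.6, 23.7 and 22.1 CPM (1.33 ± 0.11, adjusted p = 0.00077). In each of these genes the replicates of a group differed little beside the distance between the groups.

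CALB1, the cytosolic calcium buffer calbindin, was low in controls at 2.19, 2.98 and 3.36 CPM and rose to 11.6, 12.4 and 10.7 CPM (2.02 ± 0.17, adjusted p = 0.00097). ITPR1, the calcium release channel of the endoplasmic reticulum, went from 28.1, 22.6 and 22.5 to 46.4, 49.4 and 48.2 CPM (0.98 ± 0.10, adjusted p = 0.0021). ITPR1 is a member of a list of 44 calcium pumps, channels and buffers, which does not hold CALB1 and in which 5 members rose and 4 fell, close to the shares of all tested genes. With the GC correction 4 rose and 0 fell.

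Developmental transcription factors were among the raised genes. SOX9, an HMG-box factor of glial and cartilage development, was at 80.3, 78.0 and 75.9 CPM in controls and at 206.7, 195.7 and 173.3 CPM with artesunate (1.30 ± 0.08, adjusted p = 0.00026). IRX1, an Iroquois homeobox factor, was at 33.1, 29.9 and 28.4 CPM and rose to 98.3, 88.2 and 70.5 CPM (1.49 ± 0.13, adjusted p = 0.0010). Artesunate 3 was the lowest of the treated libraries for both genes. In the list of 33 neural and glioma stem cell factors 7 rose and 4 fell (5 and 8 with the GC correction; median -0.03), so the list as a whole had no common direction. NFIX (1.24 ± 0.10) and SOX12 rose, while MSI2 (-1.04 ± 0.20, adjusted p = 0.014) and NFIA (-0.91 ± 0.21, adjusted p = 0.028), called in the 6 libraries, did not hold in every refit. These 4 members of the list were picked after their values were seen.

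RDH10, which oxidises retinol to retinaldehyde, was at 16.8, 16.2 and 15.1 CPM and rose to 42.3, 44.7 and 39.2 CPM (1.39 ± 0.09, adjusted p = 0.00032). RARA, a retinoic acid receptor, was at 24.2, 20.8 and 18.3 CPM and rose to 48.2, 50.6 and 38.2 CPM (1.11 ± 0.14, adjusted p = 0.0040). RARB, another receptor of the same group, was at 50.4, 43.6 and 47.6 CPM and fell to 31.9, 27.4 and 29.6 CPM (-0.67 ± 0.09, adjusted p = 0.0046). In the annotation RARB overlaps TOP2B, and RARA overlaps RARA-AS1 and AC080112.3, which was itself called higher (1.965 ± 0.407, adjusted p = 0.019). Strand use in the counting is not stated.

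**Figure D2:**
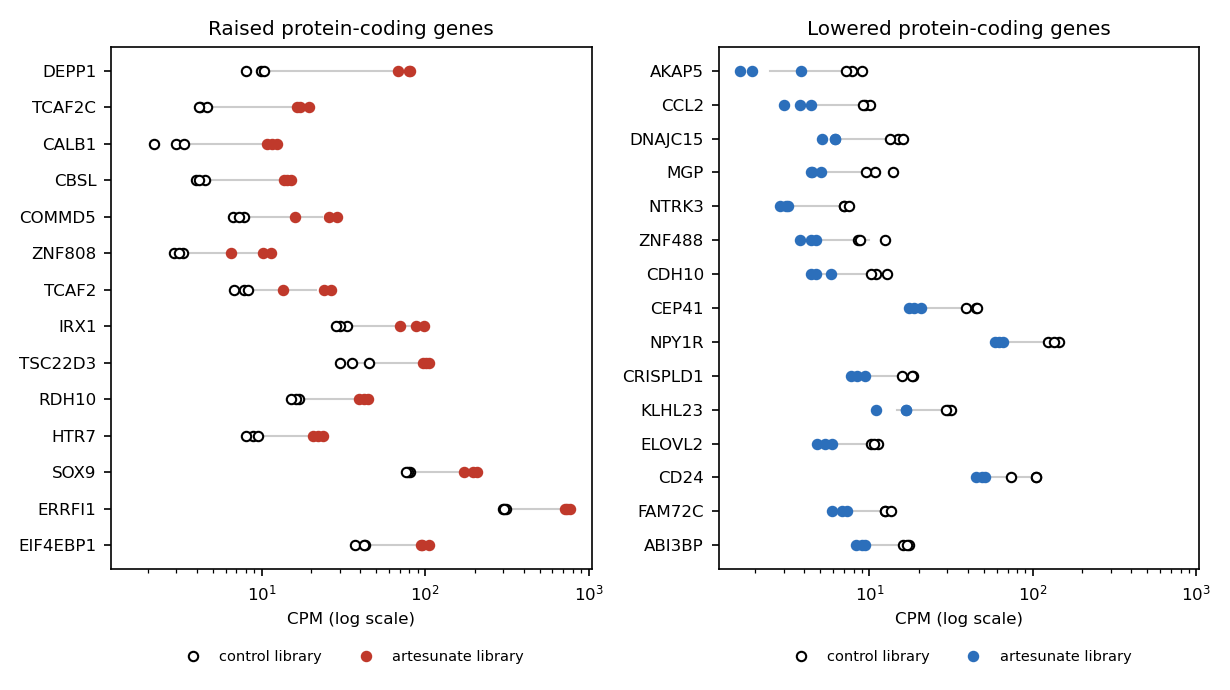
CPM (log scale) in each of the 3 control (open) and 3 artesunate (filled) libraries of U251 for the protein-coding genes with the largest rises (left, without AC023055.1) and falls (right) outside the known lists, with a grey line between the group means. By the rule that chose these genes all artesunate libraries lie beyond all controls, and the gap is widest for DEPP1.

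Several of the largest values came from genes that share their position with another gene or have a near-identical copy. AC023055.1 (ENSG00000257390, protein-coding in the deposited annotation) had 2 counts in each control library and 421, 503 and 494 with artesunate. SARNP, an mRNA export factor, lies across the same stretch of chromosome 12 (55752463 to 55817756, GRCh38) and went the other way, with 594, 690 and 629 counts in controls and 173, 79 and 263 with artesunate. Their sum was 596, 692 and 631 counts in controls and 594, 582 and 757 with artesunate (40.4 ± 1.59 against 41.9 ± 5.29 CPM, mean ± SD, n = 3). With these genes summed the log2 fold change was 0.06 ± 0.10 (adjusted p = 0.75). Counts thus shifted between these gene models, while the total of this pair did not differ beyond its spread. AC023055.1 also overlaps GDF11, ORMDL2 and DNAJC14, which were left out of the sum. DNAJC14 had 588, 608 and 503 counts in controls and 239, 676 and 219 with artesunate (-0.56 ± 0.40, not called, adjusted p = 0.37). The pair is therefore not a full account of the locus. In U87 controls AC023055.1 had 588, 404 and 500 counts and SARNP 240, 369 and 187, and with artesunate they had 824, 749 and 508 and 96, 112 and 472, so that the split varied between libraries of 1 group.

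**Figure D3:**
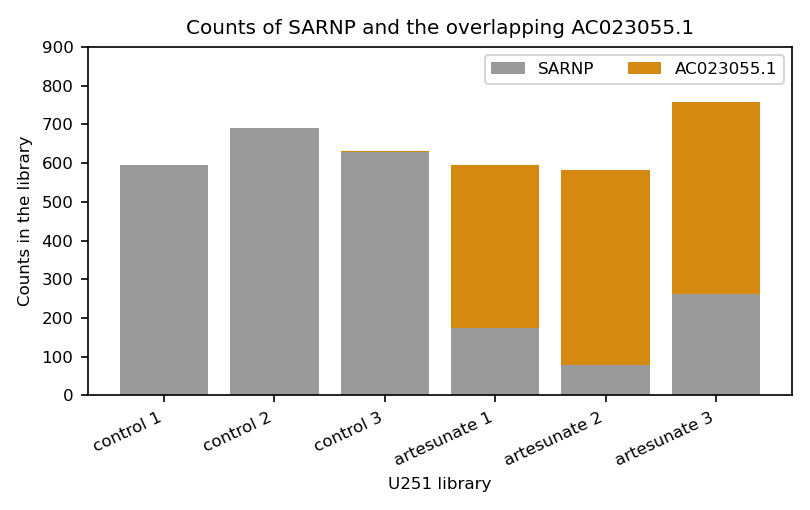
Counts of SARNP (grey) and of the overlapping gene AC023055.1 (orange), stacked, in each U251 library as deposited. The stacked total lies between 582 and 757 in all libraries, while AC023055.1 goes from 2 counts per control library to 421, 503 and 494 with artesunate.

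Summing gave mixed results at the other shared loci. TCAF2 and TCAF2C, overlapping genes for TRP channel-associated factors, rose by 1.495 ± 0.253 and 2.04 ± 0.12, and their locus summed with AC073264.3 rose from 187, 218 and 179 to 647, 560 and 675 counts (1.74 ± 0.13, adjusted p = 0.00059). CBS, the first enzyme of transsulfuration, is a member of the integrated stress response list, and CBSL is its near-identical copy. CBS and CBSL rose together, from 207, 243 and 217 to 636, 754 and 740 summed counts (1.72 ± 0.08, adjusted p = 9.7e-05). COMMD5, a COMM-domain protein gene, rose by 1.70 ± 0.22, and with the overlapping ZNF7 the rise was 1.24 ± 0.19 (adjusted p = 0.0068). ZNF808, a zinc finger gene, rose by 1.59 ± 0.23, but ZNF701, which it overlaps, was at 14.8, 17.6 and 1.30 CPM with artesunate, and the summed pair was at -0.04 ± 0.27 (log2, adjusted p = 0.93). The rise of ZNF808 was not seen in the summed pair. Other genes named here that overlap a tested gene were not summed: DEPP1 (with RASSF4), MGP (C12orf60), ERRFI1 (AL034417.4), RDH10 (RPL7), PYGB (ABHD12 and AL121772.3), DCK (MOB1B), MTAP (TUBB8P1 and AL359922.2) and TNFRSF10B (RHOBTB2). The same holds for TUBA1C (TUBA1A and AC125611.3), TUBB (AL662797.1), PDK1 (AC078883.1), SLC25A40 (DBF4), ATF4P3 (RNF157), SOX2-OT (SOX2 and DNAJC19) and MIRLET7BHG (PRR34-AS1 and MIRLET7B). SOX9, BHLHE40, WNT5A and ARRDC3 overlap their antisense genes.

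The lowered genes chosen by fold included receptors. NPY1R, a neuropeptide Y receptor, was at 124.1, 144.0 and 133.8 CPM in controls and fell to 66.1, 58.9 and 62.1 CPM (-1.10 ± 0.08, adjusted p = 0.00050). NTRK3, the receptor for neurotrophin 3, was at 6.955, 7.002 and 7.47 CPM and fell to 2.85, 3.19 and 3.10 CPM (-1.23 ± 0.13, adjusted p = 0.0020). Both groups were narrow in these genes, which were chosen for groups that do not overlap. AKAP5, an anchor for protein kinase A, was at 9.01, 7.86 and 7.22 CPM and fell to 1.92, 1.63 and 3.84 CPM (-1.69 ± 0.31, adjusted p = 0.012), but summed with the overlapping ZBTB25 the value was -0.72 ± 0.23 and was not called (adjusted p = 0.069).

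CCL2, the monocyte-attracting chemokine, was at 9.41, 10.1 and 9.09 CPM and fell to 3.78, 3.00 and 4.40 CPM (-1.35 ± 0.16, adjusted p = 0.0033). MGP, matrix Gla protein, was at 10.8, 13.9 and 9.52 CPM and fell to 5.06, 4.44 and 4.40 CPM (-1.30 ± 0.17, adjusted p = 0.0043). CD24, a small glycosylated surface protein, was at 104.9, 73.4 and 104.9 CPM and fell to 49.1, 51.2 and 44.7 CPM (-0.97 ± 0.14, adjusted p = 0.0066). The middle control library was the low one for CD24, still above every artesunate library as the rule required. CDH10, a neural cadherin, ABI3BP, a matrix protein gene, and CRISPLD1, a secreted protein gene, fell by 1.19, 0.92 and 1.04 on the log2 scale.

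Metabolic and organelle genes completed the list of the largest falls. DNAJC15, a cochaperone of the mitochondrial import motor, was at 15.0, 13.5 and 15.9 CPM and fell to 6.20, 5.12 and 6.13 CPM (-1.35 ± 0.13, adjusted p = 0.0014). CEP41, a centrosome and cilium protein gene, was at 38.9, 44.6 and 45.4 CPM and fell to 18.7, 17.6 and 20.7 CPM (-1.18 ± 0.10, adjusted p = 0.00089). ELOVL2, which elongates polyunsaturated fatty acids, was at 10.3, 11.3 and 10.6 CPM and fell to 5.91, 5.37 and 4.77 CPM (-1.01 ± 0.13, adjusted p = 0.0037). These 3 genes kept their calls with the GC correction. FAM72C has near-identical copies (FAM72A, FAM72B and FAM72D), and the 4 genes summed fell from 1825, 1987 and 1919 to 939, 1134 and 1113 counts (-0.81 ± 0.05, adjusted p = 0.00044). ZNF488 and KLHL23 also fell, by 1.21 and 1.03 on the log2 scale, and KLHL23 summed with the overlapping PHOSPHO2 fell by 0.97.

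Most calls were of protein-coding genes. In that class 1361 of 12566 protein-coding genes were higher (10.8%) and 1305 were lower (10.4%), beside 20 and 12 of 440 long intergenic RNAs and 29 and 12 of 659 antisense RNAs. SOX2-OT, a long RNA whose span contains SOX2, was at 278.9, 280.5 and 296.5 CPM in controls and fell to 117.1, 135.2 and 179.0 CPM (-0.99 ± 0.15, adjusted p = 0.0062). SOX2 itself was at 262.6, 250.2 and 233.2 CPM in controls and 258.0, 253.0 and 224.6 CPM with artesunate, a difference of -0.02 ± 0.07 that was not called (adjusted p = 0.88). MIRLET7BHG, the host transcript of let-7 microRNAs, was at 12.65, 11.51 and 13.63 CPM and rose to 32.0, 29.6 and 33.5 CPM (1.33 ± 0.10, adjusted p = 0.00063). The pseudogenes NMRAL2P (1.66 ± 0.23) and ATF4P3 (2.03 ± 0.19) rose too, and reads of ATF4P3 may belong to its parent gene.

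Other genes were named for the size of their change in CPM and not in fold. TFRC, the transferrin receptor, was at 1739, 1724 and 1616 CPM and rose to 2104, 2149 and 2160 CPM (0.34 ± 0.05, adjusted p = 0.0044). PYGB, brain glycogen phosphorylase, and AHNAK, a giant scaffold protein gene, rose by 0.57 and 0.31 (log2). PLEC, which encodes the linker plectin, rose by 0.70 ± 0.11 (adjusted p = 0.0078), but its value was 0.26 and no longer called with the GC correction (adjusted p = 0.086).

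In the other direction TUBB, NEFL and TUBA1C lost the most CPM among the genes named for their change in CPM. TUBB, a beta-tubulin gene, was at 4180, 4253 and 4196 CPM in controls and fell to 3423, 3357 and 3187 CPM (-0.34 ± 0.04, adjusted p = 0.0032). NEFL, the light neurofilament chain, was at 2614, 2586 and 2570 CPM and fell to 1846, 1722 and 1613 CPM (-0.59 ± 0.05, adjusted p = 0.0014). TUBA1C fell by 0.55 and NUCKS1, a chromatin-associated protein gene, by 0.60 on the log2 scale. These falls were not shared by all genes of the same families. In the list of tubulins and microtubule-binding proteins 6 of 44 were lower and 3 higher. With the GC correction 5 of 43 were lower and 2 higher. The tubulin genes TUBA1A and TUBB3 and the neurofilament gene NEFM were not called. KPNA2, a nuclear import receptor, was at 494, 587 and 489 CPM and fell to 279.3, 291.2 and 265.9 CPM (-0.91 ± 0.08, adjusted p = 0.0012).

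KPNA2 belongs to the list of nuclear pore and transport factors, the largest block of falls among the 43 lists outside the known programs. Of 59 tested members 25 fell and 2 rose, with a median log2 fold change of -0.20 against -0.01 for all tested genes. In all refits 6 of these falls and 2 rises held, beside 28.6% of all calls. NUP107, a scaffold subunit of the pore, was at 82.1, 81.8 and 81.3 CPM in controls and fell to 53.8, 55.3 and 54.3 CPM (-0.59 ± 0.05, adjusted p = 0.0012). Other scaffold subunits fell with it: NUP37, NUP160, NUP133, SEH1L and NUP43 had log2 fold changes of -0.51, -0.33, -0.30, -0.47 and -0.28. The export receptor of the importins CSE1L fell by 0.51, the GTPase RAN by 0.74 and its exchange factor RCC1 by 0.52 on the log2 scale. XPOT, the tRNA exporter and a member of the integrated stress response list, was at 154.3, 156.6 and 155.7 CPM and rose to 214.1, 208.8 and 224.9 CPM (0.47 ± 0.05, adjusted p = 0.0025), and XPO6, the exporter of actin, rose by 0.35. Transcripts of the list had a median GC content of 43.7%. With the GC correction 15 members fell and 4 rose (median -0.16), and RAN, NUP37, SEH1L and NUP43 were no longer called.

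Genes of the primary cilium and intraflagellar transport were called in one direction, with 10 of 55 lower and 0 higher (9 and 0 with the GC correction; median -0.17). Of these falls 3 held in all refits. CC2D2A, a transition zone protein, was at 14.0, 13.8 and 13.2 CPM in controls and fell to 7.84, 8.31 and 8.24 CPM (-0.75 ± 0.10, adjusted p = 0.0040). TTC8, RPGRIP1L, AHI1 and the motor chain DYNC2H1 fell by 0.63, 0.58, 0.51 and 0.50 on the log2 scale. Of centrosomal genes with symbols starting in CEP, 11 of 38 fell and 2 rose (8 and 1 with the correction).

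In the pyruvate dehydrogenase and TCA cycle list most falls were not called after the correction. Of 33 members 9 fell and 2 rose, but with the GC correction 1 fell and 2 rose. FH, fumarate hydratase, kept its call: it was at 162.9, 159.8 and 168.3 CPM in controls and 121.4, 117.0 and 116.2 CPM with artesunate (-0.47 ± 0.05, adjusted p = 0.0027). PDK1, the kinase that switches off pyruvate dehydrogenase and a member of the hypoxia list, rose by 0.70. In fatty acid oxidation 6 of 36 fell and 1 rose (4 and 0 with the correction), led by CROT, a peroxisomal carnitine transferase, at -0.85 ± 0.08 (adjusted p = 0.0014).

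Among the 43 lists outside the known programs the insulin-like growth factor axis had the highest share of rises, with 9 of 17 higher and 1 lower (8 and 1 with the GC correction; median 0.29). Of its raised members 3, IGFBP3, STC1 and STC2, also stand in the known lists. In all refits 8 of the 9 rises and 1 fall held. INSR, the insulin receptor, was at 13.8, 10.4 and 15.8 CPM in controls and rose to 29.93, 26.31 and 24.97 CPM (1.02 ± 0.16, adjusted p = 0.0078). IRS2, the adaptor that carries its signal, was at 140.2, 134.1 and 130.2 CPM and rose to 268.0, 244.3 and 235.8 CPM (0.89 ± 0.07, adjusted p = 0.00063). The binding proteins were split. IGFBP2 rose by 0.79 ± 0.10 (adjusted p = 0.0037), whereas IGFBP4 was at 174.7, 172.1 and 174.9 CPM and fell to 123.9, 122.9 and 94.4 CPM (-0.61 ± 0.11, adjusted p = 0.011).

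Other receptor and ligand genes went both ways. Among 27 receptor tyrosine kinases 5 rose and 3 fell (18.5% and 11.1%, beside 9.69% and 9.23% of all tested genes). With the correction these were 4 and 4. DDR2, a collagen receptor, rose by 0.70 ± 0.08 (adjusted p = 0.0023), while PDGFRA, a platelet-derived growth factor receptor often amplified in glioma, was at 46.5, 47.4 and 46.2 CPM and fell to 29.6, 28.3 and 28.9 CPM (-0.69 ± 0.06, adjusted p = 0.0012). TGFA, a ligand of the epidermal growth factor receptor, was at 55.8, 60.3 and 57.7 CPM and rose to 113.4, 116.7 and 106.2 CPM (0.95 ± 0.06, adjusted p = 0.00043). TNFRSF10B, the death receptor for TRAIL, was at 132.1, 119.5 and 115.5 CPM and rose to 232.8, 237.5 and 229.7 CPM (0.93 ± 0.07, adjusted p = 0.00050). In the Wnt list 8 of 43 were higher (18.6%) and 4 lower (9.3%, near the share of all tested genes), or 5 and 4 corrected. Only 1 rise and 1 fall of this list held in all refits. Its ligand WNT5A rose by 0.62 ± 0.06 and its receptor LGR4 fell by 0.63 on the log2 scale.

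Oxygen-dependent histone and DNA demethylases, enzymes that use 2-oxoglutarate, iron and oxygen, included 8 higher and 0 lower of 24 (7 and 0 with the GC correction; median 0.15). KDM4B and KDM3A, which also stand in the hypoxia list, rose by 1.05 and 1.02. Outside that list KDM2A, KDM7A, KDM5C, KDM4C and TET3 rose by 0.65, 0.55, 0.48, 0.45 and 0.40. KDM6B, at 0.51 (adjusted p = 0.042), was at 0.17 and not called with the correction.

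Enzymes that hydroxylate, crosslink and fold collagen belong in part to the same enzyme class, and 9 of 26 were higher and 0 lower (7 and 0 with the correction; median 0.20 and 0.07). PLOD2, a lysyl hydroxylase, was at 216.9, 235.0 and 233.4 CPM in controls and rose to 469.9, 459.6 and 498.6 CPM (1.06 ± 0.06, adjusted p = 0.00019). PLOD1 rose by 0.86 and the lysyl oxidase LOXL2 by 0.83. The prolyl hydroxylases P4HA1 and P4HA2, both hypoxia list members, rose by 1.07 and 0.63. PLOD3, PPIB and COLGALT1 were no longer called after the correction. Proteoglycan genes moved less uniformly, with 10 of 51 higher and 6 lower (19.6% and 11.8%, beside 9.69% and 9.23% of all tested genes). With the correction these were 4 and 5, and 1 rise and 1 fall held in all refits. GPC1, a membrane heparan sulfate proteoglycan, rose by 0.82 ± 0.08, or 0.46 with the correction. VCAN, the large matrix proteoglycan versican, was at 134.8, 144.4 and 129.2 CPM and fell to 80.9, 88.9 and 90.6 CPM (-0.65 ± 0.07, adjusted p = 0.0024).

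Circadian clock genes had 7 of 23 members higher and 3 lower, and 5 and 0 with the correction. BHLHE40, a repressor of the clock that also stands in the hypoxia list, was at 154.7, 165.5 and 155.0 CPM and rose to 290.0, 295.0 and 262.8 CPM (0.83 ± 0.07, adjusted p = 0.00068). NFIL3, another repressor, rose by 0.80 ± 0.12 (adjusted p = 0.0058). CLOCK, ARNTL2 and RORB, at -0.28, -0.30 and -0.62, were called lower on the deposited counts but not after the correction.

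Polyamine metabolism had 6 of 21 members higher and 3 lower (28.6% and 14.3%, beside 9.69% and 9.23% of all tested genes). With the correction these were 4 and 3. MTAP, the methionine salvage enzyme that lies beside CDKN2A on chromosome 9, was at 90.9, 86.0 and 81.2 CPM in controls and rose to 191.3, 178.7 and 198.0 CPM (1.14 ± 0.07, adjusted p = 0.00027). MTAP was thus expressed in all 6 libraries, unlike CDKN2A with its 0 counts. SMOX, spermine oxidase, rose by 0.81. AMD1, the decarboxylase that feeds polyamine synthesis, was at -0.38 ± 0.06 (adjusted p = 0.0069) and -0.18 with the correction, where it was not called. In purine and pyrimidine synthesis 9 of 42 fell (21.4%) and 4 rose (9.52%, near the share of all tested genes), or 9 and 2 corrected. DCK, deoxycytidine kinase, fell by 0.55 and UPP1, uridine phosphorylase, rose by 0.59 on the log2 scale.

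In the endosome and ESCRT list 11 of 59 rose (18.6%, beside 9.69% of all tested genes) and 4 fell (6.78%, beside 9.23%). With the correction 9 rose and 0 fell. ARRDC3, an arrestin-like adaptor, rose by 0.71 ± 0.08 (adjusted p = 0.0024), and PDCD6IP, at -0.38, was not called after the correction (adjusted p = 0.072). CUL4B, a ubiquitin ligase scaffold, was at 525, 555 and 572 CPM and fell to 334.6, 336.9 and 373.6 CPM (-0.66 ± 0.06, adjusted p = 0.0014), in a list where 7 of 89 rose and 9 fell, near the shares of all tested genes on the deposited counts (10 and 5 corrected). On the deposited counts mitochondrial protein import, SLC25 carriers, hnRNP proteins, ion channels and the vacuolar ATPase had shares called below those of all tested genes in each direction. With the correction the channels had 4 higher and 2 lower of 36, hnRNP proteins 3 and 0 of 40, SLC25 carriers 3 and 3 of 44, protein import 2 and 1 of 40 and the vacuolar ATPase 1 and 0 of 21.

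**Figure D4:**
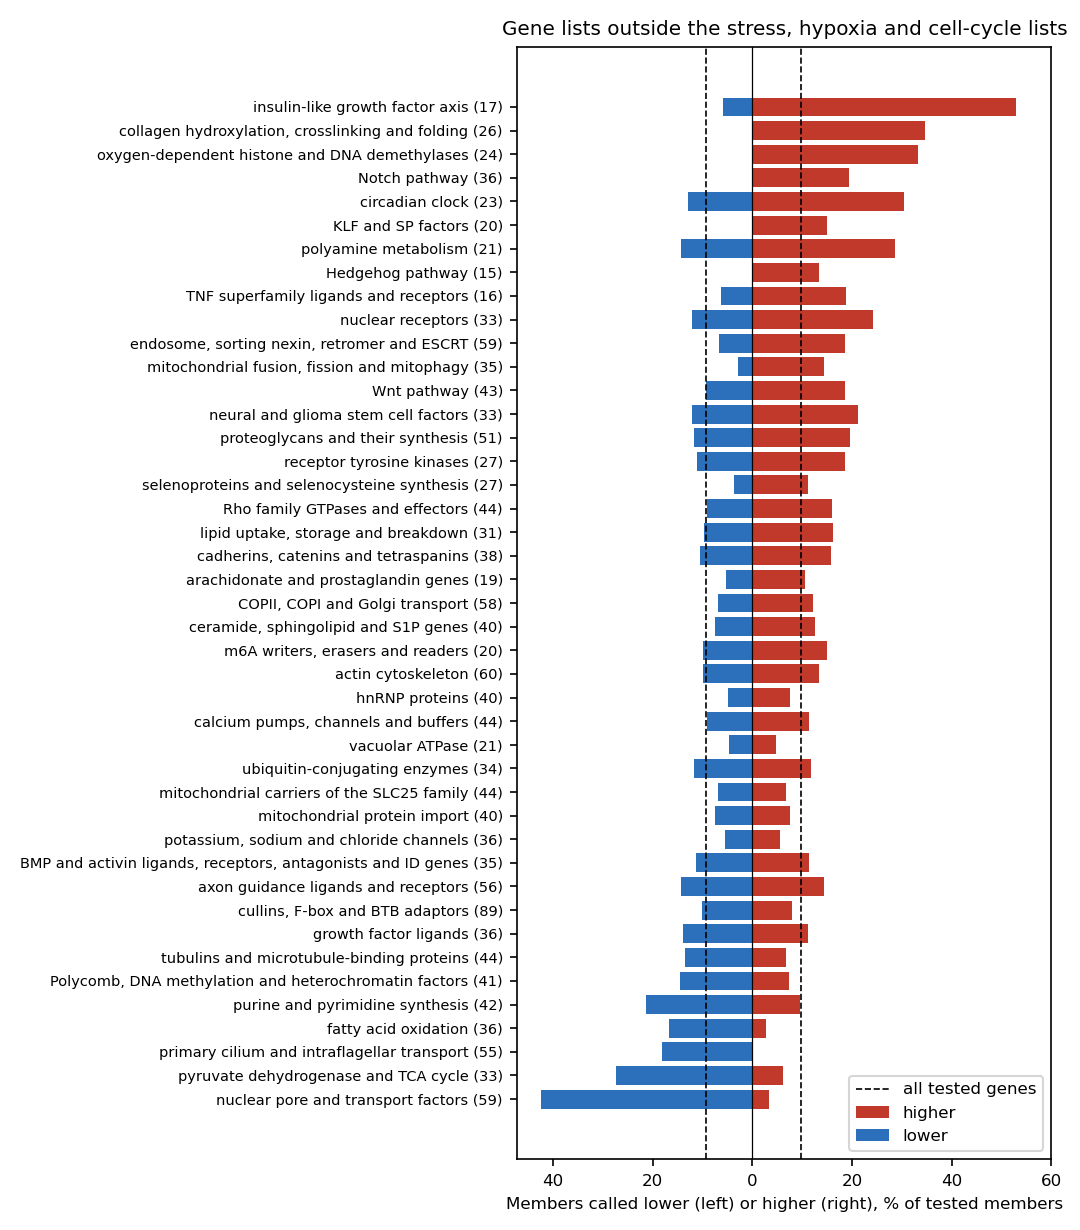
Share of tested members called lower (blue, left) or higher (red, right) with artesunate in U251 on the deposited counts, in % for each of 43 gene lists (tested members in brackets), with dashed lines at the shares of all tested genes (9.69% higher, 9.23% lower). The insulin-like growth factor axis reaches furthest to the right and the nuclear pore list furthest to the left, and some members also stand in the stress or hypoxia lists.

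**Figure D5:**
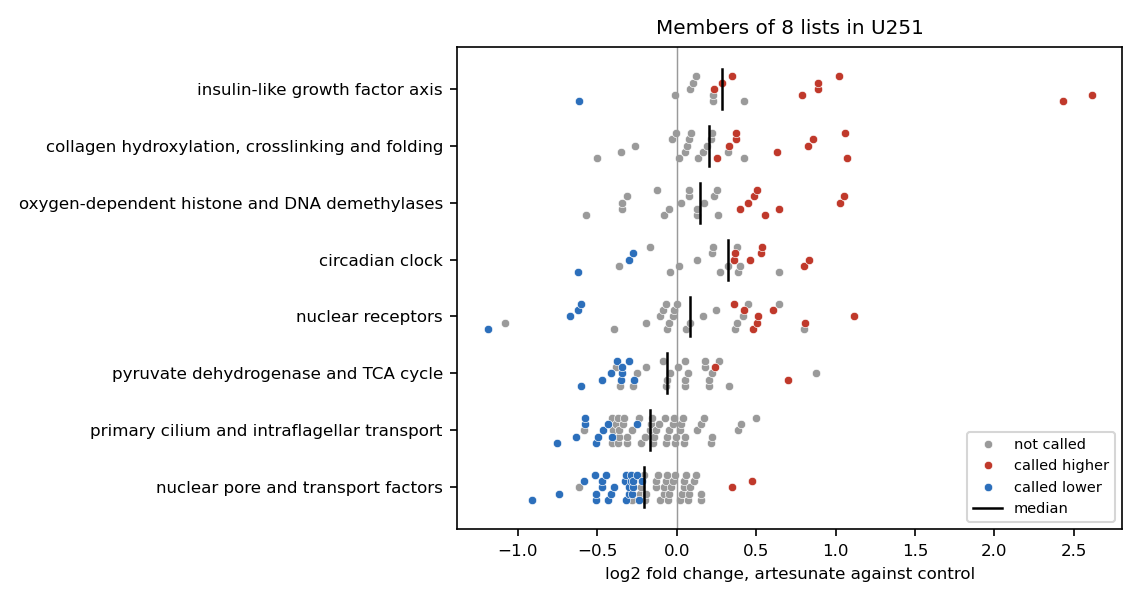
log2 fold change of each tested member of 8 lists, with called members in red (higher) or blue (lower), other members in grey and the median as a black bar. Rises of single members extend beyond 2 in the growth factor axis, while falls in the nuclear pore list lie within 1 of 0.

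Families read from gene symbols, of which 51 had at least 25 tested genes, gave a view that needed no gene list. They go by leading letters alone, so a family can hold genes other than those its name stands for. Solute carriers (SLC, antisense genes included) had 39 of 223 higher and 10 lower (25 and 7 with the correction), and 13 of the 223 stood in the known lists. SLC6A8, the creatine transporter, was at 90.3, 91.1 and 85.0 CPM in controls and rose to 206.0, 205.0 and 170.0 CPM (1.12 ± 0.09, adjusted p = 0.00068), and SLC5A3, the myo-inositol transporter, rose by 0.93 ± 0.11 (adjusted p = 0.0032). Both were picked after their values were seen. The RAB symbols, not restricted to the GTPases, had 9 of 67 higher (13.4%, beside 9.69% of all tested genes) and 1 lower (10 and 1 corrected). General transcription factors (GTF) had 10 of 31 lower (32.3%, beside 9.23% of all tested genes) and 1 higher (5 and 1 corrected). These families are a selection. Symbols starting in SH, MAP and PPP had 31.2%, 26.2% and 21.5% higher and 0%, 4.76% and 3.08% lower. In numbers 10 of 32, 11 of 42 and 14 of 65 were higher, which became 4, 5 and 7 with the correction. Lower were 0, 2 and 2 in both fits. Kinesins (KIF) had 31.4% lower and 2.86% higher, with 11 of 35 in the known lists. With the correction 13 were lower and 0 higher. Zinc finger genes (ZNF) had 28 higher and 28 lower of 472, or 5.93% in each direction, and 19 and 8 with the correction.

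Promoter windows were searched for 4 short motifs, from 250 bases before to 50 after the RefSeq start (GRCh38.p14), which were found by symbol for 10369 of the 15286 tested genes. The hypoxia response core ACGTG, on either strand, was in 27.5% of the windows of raised genes outside the known lists, 26.8% of the lowered and 26.9% of all tested genes. The cAMP response element TGACGTCA was in 3.50%, 2.99% and 3.32%. The antioxidant response core TGACNNNGC was in 16.7%, 11.9% and 14.9%, and the E2F site TTTNGCGC in 2.50%, 4.23% and 3.09%. Windows of raised genes were richer in GC (68.2%) than those of lowered (62.1%) and all tested genes (64.5%). A match is a description of letters, not of binding. The windows of 3 genes with large CPM differences are shown because they hold these motifs, which are in capitals (either strand). They are TFRC (chr3:196082041-196082340, minus strand) with ACGTG, NUCKS1 (chr1:205750133-205750432, minus strand) with ACGTG and the E2F site, and KPNA2 (chr17:68035485-68035784, plus strand) with ACGTG and the antioxidant core.
TFRC: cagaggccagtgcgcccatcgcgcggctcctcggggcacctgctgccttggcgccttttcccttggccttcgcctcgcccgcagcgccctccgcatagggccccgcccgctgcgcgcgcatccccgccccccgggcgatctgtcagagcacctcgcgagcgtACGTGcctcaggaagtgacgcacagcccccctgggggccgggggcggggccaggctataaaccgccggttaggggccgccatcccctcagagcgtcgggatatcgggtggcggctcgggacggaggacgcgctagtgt
NUCKS1: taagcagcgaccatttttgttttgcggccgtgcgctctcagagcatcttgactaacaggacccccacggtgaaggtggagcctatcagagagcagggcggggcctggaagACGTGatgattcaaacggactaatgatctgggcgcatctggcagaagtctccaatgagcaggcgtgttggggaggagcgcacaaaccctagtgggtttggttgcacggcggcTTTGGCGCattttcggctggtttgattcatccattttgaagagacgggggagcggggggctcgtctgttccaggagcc
KPNA2: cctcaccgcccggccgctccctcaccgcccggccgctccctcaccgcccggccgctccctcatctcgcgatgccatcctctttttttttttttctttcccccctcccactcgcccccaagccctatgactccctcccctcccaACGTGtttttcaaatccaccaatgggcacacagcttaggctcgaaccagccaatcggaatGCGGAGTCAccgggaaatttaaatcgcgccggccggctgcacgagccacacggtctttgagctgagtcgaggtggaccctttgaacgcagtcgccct

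The effects on the 12 genes with the largest changes were set against those in U87, in a fit of all 12 libraries in which 49.4% of 17150 genes had a called difference between the lines. Line and dose differ together, so their parts cannot be told apart. The difference was called for 6 of the 12, which are described in the closing section, and not for CALB1, CBSL, AKAP5, MGP, NTRK3 and ZNF488 (adjusted p = 0.064 to 0.18). Most of these were near the floor in U87. CALB1, MGP, NTRK3 and ZNF488 reached at most 0.62, 0.69, 0.98 and 0.12 CPM in any U87 library, and AKAP5 at most 2.38 CPM. A missing call in these genes does not show that the lines responded alike. In U87, CBSL rose by 1.12 ± 0.23 (adjusted p = 0.0012), beside 1.78 in U251, with a difference of 0.65 ± 0.31.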

How the data were processed

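Polyadenylated RNA of 12 libraries was sequenced, and the 6 from U251 were compared. Per the submitters' processing notes the reads were handled with fastp, HISAT2 2.1.0, StringTie 1.3.3b and edgeR 3.30.3. How the counts were made and whether strand was used are not given in the sources used here. The deposited whole-number counts per gene went into edgeR 4.0.16 under R 4.3.3, where filterByExpr (minimum count 10, minimum total 15) kept 15286 of 58302 genes, followed by TMM factors, 1 mean per group, the quasi-likelihood test and Benjamini-Hochberg adjustment over all tested genes, with a call at 0.05. CPM are TMM-scaled. ± after a log2 fold change is its standard error. limma 3.58.1 on the deposited FPKM of the authors and DESeq2 1.42.0 were alternatives, and 6 FPKM columns of U87 were not used. The log2 fold changes and p-values deposited by the authors were used only through the calls beside them: the authors' deposited table lists 181 U251 genes as higher and 88 as lower, and 160 of them had a call here too.

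Genes were named by rule: 15 protein-coding genes per direction by fold and 4 non-coding ones, outside the known lists, with a mean of at least 5 CPM, non-overlapping groups and a call in all refits. To these came the smallest p per direction in each of 43 lists and the 5 largest CPM differences per direction, 102 genes in all, not all of which are reported here. The members and lists were chosen with earlier results of these data known. The GC and length correction used splines with 5 degrees of freedom on the longest GENCODE 29 transcript, fitted per library and entered as offsets. The tests were tried on simulated data first. The precision of low genes is limited by 14230077 to 16297348 counts per library, and stated count limits cover counting error only.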

Additional observations from a re-analysis of the deposited data

Results flagged for a closer look

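For 6 of the 12 leading genes the artesunate effect differed between the lines by the interaction test of the 12-library fit (edgeR quasi-likelihood), with dose and line changing together. This share is near that of all genes, 49.4% of 17150, and the 12 were chosen for their effect in U251. In U87 the values are CPM by library total. DEPP1 was at 63.4, 65.8 and 64.4 CPM in U87 controls and fell to 27.2, 47.8 and 31.8 CPM, so the difference between the effects was 3.81 ± 0.25 (log2, U251 minus U87, adjusted p = 1.5e-06). TCAF2C fell from 17.6, 21.9 and 19.4 to 2.23, 3.08 and 1.67 CPM in U87, a difference of 5.05 ± 0.27 (adjusted p = 7.6e-07). DNAJC15 was at 52.3, 49.3 and 46.2 CPM in U87 controls and rose to 89.4, 69.3 and 89.5 CPM, the opposite of U251, with a difference of -2.17 ± 0.19. COMMD5 had U87 levels of 8.26, 12.8 and 15.7 CPM in controls and 6.90, 8.51 and 9.92 CPM with artesunate, a fitted effect of -0.46 ± 0.26 that was not called, and the difference was 2.16 ± 0.37. CCL2 stayed under 1 CPM in every U87 library, and its difference was -1.65 ± 0.48 (adjusted p = 0.014). AC023055.1 had a difference of 7.11 ± 0.41, a fitted value that depends on the prior count because U251 controls had 2 counts per library. AC023055.1 shares its locus with SARNP, TCAF2C with TCAF2, COMMD5 with ZNF7 and DEPP1 with RASSF4. No locus was summed in the fit with U87, so a shift of counts between overlapping genes was not tested there.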

How the results depend on the processing

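Counts of calls varied more than the named genes did. Higher and lower calls were 1329 and 1658 with library totals in place of TMM factors (44.5% higher, against 51.2% with TMM, as the median shifted by -0.03), and 1572 and 1330 with DESeq2. Lower calls were 885 without a filter on low counts. All 12 libraries gave 701 and 730 calls and 196 called members over the 43 lists, against 391 from the 6 libraries. On FPKM with a pseudocount of 1, 64 rose and 13 fell at least 2-fold. Without a filter these were 61 and 10, all calls 746 and 911, and list members 220. The GC and length correction left 49 genes lowered at least 2-fold. Leaving out 1 library gave 710 to 1600 higher and 626 to 1340 lower calls, 134 to 188 and 58 to 98 past 2-fold, and 189 to 416 list members. Replicate numbers did not pair the samples (correlations of deviations of 0.0001, -0.029 and 0.017 for equal numbers), and with the replicate block there were 1156 and 1019 calls. The 102 named genes kept call and direction in the 10 refits by the rule that chose them. On FPKM they did so too with a filter, and ZNF808 and TCAF2 lost the call without it. With the GC correction 94 kept it, and GPAM, SLC25A40, AMD1, TWSG1, SEC16A, PDCD6IP, YTHDC2 and PLEC did not. With loci summed, ZNF808 reversed to -0.044, and AC023055.1 and AKAP5 were not called. The causes were not tested. The difference from U87 was called for 6 to 8 of the 12 genes with library totals, no filter, a replicate block or each of the 12 libraries left out. Other alternatives were not run for it.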
